A study of Homo sapiens with 6 samples.

Results

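In THP-1 cells treated with the compound LC53 before lipopolysaccharide (LPS), 89 of 18255 measured genes were higher than in cells given LPS alone and in resting cells, while LPS alone left them near the resting level. The 89 genes were chosen on these same arrays. Each gene was read on its brightest probe, values under 1 were set to 1, and group means were formed from log2 intensities. A gene was kept when its mean intensity in LC53 plus LPS cells was 100 or more, when LPS and resting cells differed by no more than 0.5 on the log2 scale, when LC53 plus LPS cells exceeded both other groups by 0.9 or more, and when both LC53 plus LPS arrays lay above all 4 other arrays. Symbols beginning with SLC were left out, which removed only SLC36A1, an amino acid transporter gene. The rise over both other groups and the flat response to LPS were thus fixed by the choice of genes, and the differences given for these genes are descriptions without a test.

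RNA of THP-1, an established human monocytic leukaemia line kept in medium with 0.5% serum, was measured on 6 single-colour arrays of 31741 probes, 2 for each group. LC53 plus LPS cells received LC53 at 5 µM for 15 min and then LPS, a bacterial glycolipid that cells detect through TLR4, at 50 ng/ml for 8 h. LPS cells received the same LPS without LC53, and resting cells received neither agent. The series is titled for theissenolactone C and its action on TAK-1/IKK signalling and septic injury. The labels used here give LC53 as a code name without a structure. A group given LC53 without LPS was not analysed here, so an effect that needs LPS and an effect of LC53 alone cannot be told apart. Nothing in the labels states that the arrays of a group stem from different cultures, so p-values and standard errors cover only the spread between these 6 arrays, which may be technical.

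Cells that meet reactive or foreign chemicals raise a shared set of protective enzymes. Much of it is driven by the transcription factor NRF2, which is held low by KEAP1, an adaptor that presents NRF2 for degradation until its cysteines are modified by electrophiles. In monocytes this programme stands beside the inflammatory response that LPS starts through TLR4. The 89 genes included enzymes of the protective set and many genes with no known part in it.

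Per-array medians over all probes were 110.5 and 112.7 for LC53 plus LPS, 84.4 and 124 for LPS, and 99.2 and 110.9 for resting cells. Over all 18255 genes the median log2 difference was 0.16 between LC53 plus LPS and LPS cells and 0.10 between LC53 plus LPS and resting cells, so the values below stand on top of these small general shifts. After median centring the same medians were 0.03 and 0.01. Monocyte markers were present. Of 11 measured, ELANE, the neutrophil elastase gene, was at the top of the scale on every array. The other 10 summed to 21187 to 26405 intensity units in LC53 plus LPS cells, 21601 to 28659 in LPS cells and 25569 to 26127 in resting cells, and 1 of them, CD163, stayed under 100 on all arrays. Of 21 markers of other cell types, 11 stayed under 100 on all arrays, and the 21 together summed to 5460 to 5555 in LC53 plus LPS, 7508 to 8491 in LPS and 7330 to 8343 in resting cells. The brightest on each array was PECAM1, an adhesion gene that monocytes share with endothelium, so it weighs most in these sums. It read 2970 and 2713 in LC53 plus LPS, 5527 and 5715 in LPS and 5236 and 6114 in resting cells. It was not called against LPS cells (limma adjusted p = 0.0621). Of 4 fibroblast markers, COL3A1 stayed under 4 and COL1A1 read 272 to 461 over the 6 arrays. DCN, encoding decorin, fell against LPS cells, at 29.0 and 24.5 in LC53 plus LPS, 112 and 159.6 in LPS and 11.9 and 10.1 in resting cells (log2 difference -2.33, limma adjusted p = 0.013). LUM, encoding lumican, fell likewise, at 77.9 and 99.3 in LC53 plus LPS, 311 and 312 in LPS and 69.4 and 80.7 in resting cells (-1.82, limma adjusted p = 0.0168). The epithelial gene EPCAM read 147 and 174 in LC53 plus LPS cells, against 37.5 and 40.4 in LPS cells and 6.94 and 40.3 in resting cells. Its resting arrays were far apart, and it was not called against LPS cells (log2 difference 2.04, limma adjusted p = 0.246). The other 2 epithelial markers, KRT19 and CDH1, stayed under 50 on all arrays. The part of these markers in the results was not tested.

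Of the 18255 genes, 11056 reached the intensity of 100 in LC53 plus LPS cells and 7651 of those were flat to LPS. The rise over LPS cells then left 148, the rise over resting cells 94, and the separation of the arrays 90. A further 47 genes showed the same rises with an LPS difference above the window, and 8 with one below it. With limma's moderated test across all probes, 38 of the 89 genes were called higher against LPS cells, where 0.882% of all genes were, and 42 against resting cells, where 2.03% were. In all, 34 were called in both and 46 in at least 1. These contrasts chose the genes, and nothing is read from the shares. The count against LPS cells fell when any array but LPS replicate 2 was left out. The count against resting cells fell without an LC53 plus LPS or a resting array. Calls over all probes moved in the same direction each time. Each such fit leaves 1 array in a group, so nothing particular to the 89 is read from it. LPS against resting called 0 of the 89, which the window fixed, against 7.56% of all genes.

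**Figure D1:**
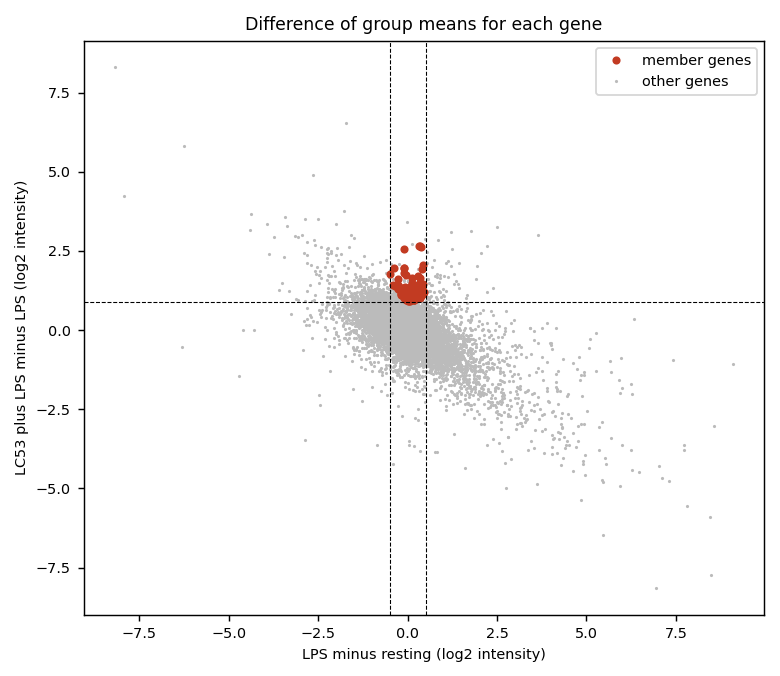
Each point is a gene, with LPS minus resting on the horizontal axis and LC53 plus LPS minus LPS on the vertical axis, both as differences of mean log2 intensity. The 89 member genes, in red, fill the strip between the dashed lines at -0.5 and 0.5 and above 0.9, with differences up to 2.67.

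The 89 genes spanned mean intensities in LC53 plus LPS cells from 102 for HAVCR1 to 44042 for TALDO1, with a median of 598, against medians of 267 in LPS and 265 in resting cells. Their summed intensity came to 244697 and 231251 for LC53 plus LPS, against 91595 and 109907 for LPS and 96361 and 99811 for resting cells. The log2 difference from LPS cells ran from 0.90 to 2.67 with a median of 1.16, and 73 of 89 genes lay below 1.5. As folds, these were 1.87 to 6.35, with a median of 2.24. The distance between the lower LC53 plus LPS array and the highest of the other 4 had a median of 0.88 on the log2 scale, and it was 1 or more for 32 genes and under 0.5 for 13. In 88 of 89 genes LPS replicate 2 read above LPS replicate 1, by a median of 0.38, close to the 0.40 by which all genes differed between these arrays. The arrays measured bulk RNA, so more cells with a transcript and more of it per cell cannot be told apart.

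**Figure D2:**
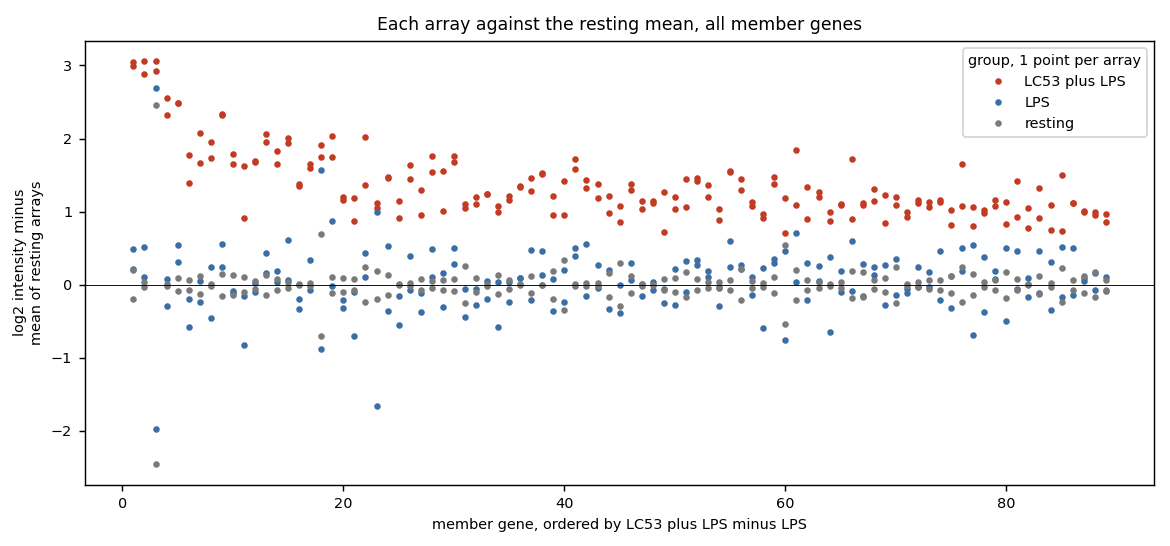
Log2 intensity of all 89 genes on each of the 6 arrays minus the gene's mean over the resting arrays, with genes ordered by their difference between LC53 plus LPS and LPS cells. Red points (LC53 plus LPS) lie above the blue (LPS) and grey (resting) points of the same gene in every column. The margin is narrowest for SYT11, IAPP, BTBD19, ILRUN and PASD1, at 0.05 to 0.23.

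Enzymes of redox and xenobiotic metabolism, with the NRF2 adaptor KEAP1, made up 12 of the 89 genes. CBR3, a carbonyl reductase that reduces ketones and quinones, read 1594 and 1588 in LC53 plus LPS cells, against 351 and 413 in LPS cells and 267 and 301 in resting cells. That was a log2 difference of 2.06 ± 0.19 (SE) from LPS cells and 2.49 from resting cells, the highest of the 12 over both groups. AKR1C1, an aldo-keto reductase of steroids and lipid aldehydes, read 423 and 427 in LC53 plus LPS cells, against 100 and 124 in LPS cells and 76.4 and 93.8 in resting cells, a log2 difference of 1.93 ± 0.21 (SE) from LPS cells and 2.33 from resting cells. AKR1C1 shares most of its sequence with AKR1C2, so its probe may read both, while the probe for AKR1C2 stayed at 9.55 ± 0.695 in LC53 plus LPS, 8.89 ± 3.74 in LPS and 8.0 ± 0.0955 in resting cells. A second AKR1C1 probe was near the floor, at 2.72 and 1.12 in LC53 plus LPS, 2.08 and 1.92 in LPS and 0.99 and 3.03 in resting cells. On the brightest probes of CBR3 and AKR1C1 the LC53 plus LPS arrays were almost equal. There the LPS arrays stood slightly above the resting arrays, and the distance to the LC53 plus LPS arrays was 1.77 or more on the log2 scale.

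The glutathione transferases followed. GSTM3, a cytosolic transferase of the mu class, read 2358 and 2357 in LC53 plus LPS cells, against 874 and 1034 in LPS cells and 1007 and 991 in resting cells, a log2 difference of 1.31 ± 0.18 (SE) from LPS cells and 1.24 from resting cells. A second GSTM3 probe, which played no part in the choice, read 176 and 165 in LC53 plus LPS cells, against 39.6 and 62.5 in LPS and 49.6 and 65.6 in resting cells, a difference of 1.78 from LPS cells. MGST1, the microsomal transferase, read 10254 and 7023 in LC53 plus LPS cells, against 2824 and 3906 in LPS cells and 3657 and 3329 in resting cells, a log2 difference of 1.35 ± 0.27 (SE) from LPS cells and 1.28 from resting cells. Its LC53 plus LPS arrays were further apart than those of GSTM3, and the rule placed both above the other groups.

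CYP2C18, a cytochrome P450, read 863 and 975 in LC53 plus LPS cells, against 282 and 311 in LPS cells and 259.8 and 288 in resting cells, a log2 difference of 1.63 ± 0.19 (SE) from LPS cells and 1.75 from resting cells. HTATIP2, a short-chain dehydrogenase-like protein also studied as a tumour suppressor, read 15786 and 15808 in LC53 plus LPS cells, against 6628 and 6623 in LPS cells and 6241 and 6197 in resting cells, a log2 difference of 1.25 ± 0.17 (SE) from LPS cells and 1.34 from resting cells. Its values differed between arrays of a group by less than 50 units. A second HTATIP2 probe gave 1.27 from LPS cells and 1.29 from resting cells. TALDO1, the transaldolase of the pentose phosphate pathway, which is a source of NADPH, was the brightest of the 89 and read 44713 and 43370.1 in LC53 plus LPS cells, against 19621 and 23682 in LPS cells and 19506 and 20444 in resting cells, a log2 difference of 1.03 ± 0.19 (SE) from LPS cells and 1.14 from resting cells. The highest TALDO1 value was 75.3% of its array's maximum, so the readings were not at the ceiling. TKT, the transketolase that works beside it, fell just outside the rule, at 43559 ± 48.4 in LC53 plus LPS, 22592 ± 199 in LPS and 23661 ± 44.2 in resting cells, with a difference of 0.88 from resting cells.

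Another 5 redox genes completed the group. CES1, a carboxylesterase with a closely related pseudogene that its probe may also read, was measured at 12213 and 9363 in LC53 plus LPS cells, against 4294 and 6305 in LPS cells and 5572 and 4880.2 in resting cells. NQO2, a quinone reductase, read 528 and 355 in LC53 plus LPS cells, against 192 and 238 in LPS cells and 198 and 142 in resting cells. CYB5R1, of the cytochrome b5 reductase family, read 1225 and 1066 in LC53 plus LPS cells, against 485 and 655 in LPS cells and 556 and 655 in resting cells, and ALDH3A2, the fatty aldehyde dehydrogenase, 602 and 594 in LC53 plus LPS cells, against 308 and 318 in LPS cells and 275 and 323 in resting cells. The rule placed both LC53 plus LPS arrays above all others in each. Differences from LPS cells were 1.04, 1.02, 1.02 and 0.93. None of these was called against LPS cells (limma adjusted p = 0.124, 0.157, 0.0951 and 0.0674). KEAP1 read 2384 and 1341 in LC53 plus LPS cells, against 679 and 1091 in LPS cells and 820.1 and 635 in resting cells, a log2 difference of 1.05 ± 0.38 (SE) from LPS cells and 1.31 from resting cells, with the widest gap between its LC53 plus LPS arrays (0.83 on the log2 scale) among the 89 genes. Its lower LC53 plus LPS array was only 0.30 above LPS replicate 2.

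**Figure D3:**
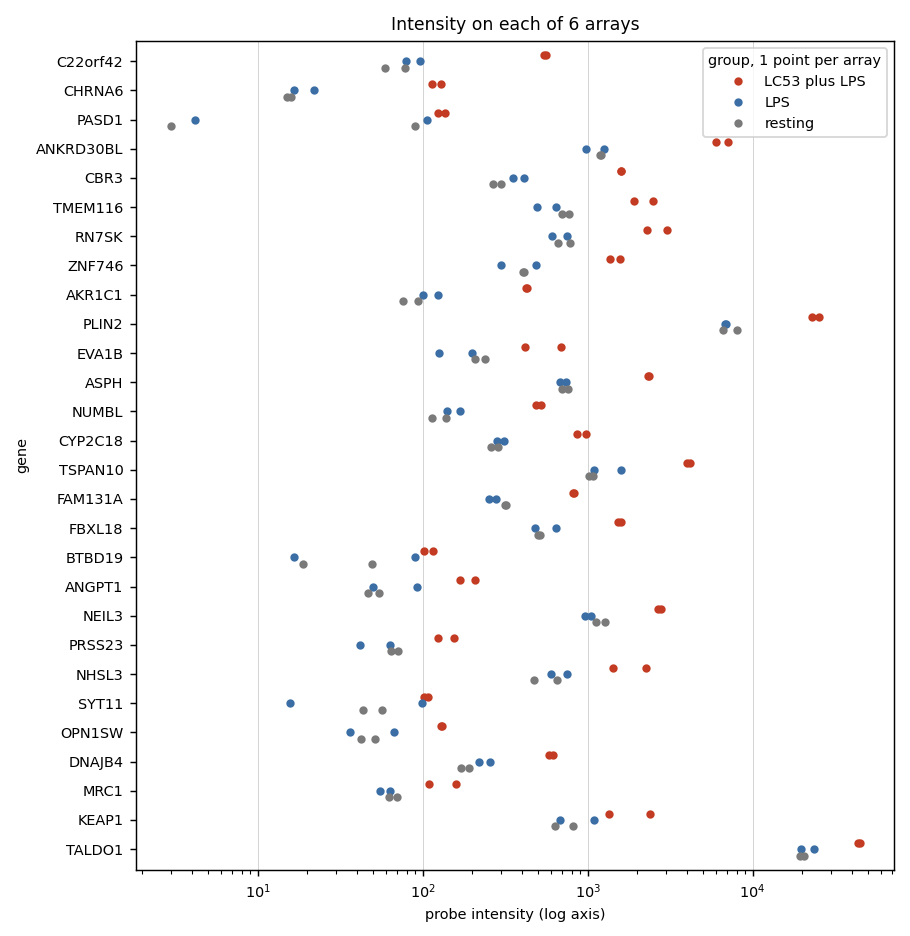
Probe intensity on a log axis for the 24 genes with the largest difference between LC53 plus LPS and LPS cells, followed by DNAJB4, MRC1, KEAP1 and TALDO1, which stood in the gene lists. Each point is 1 array. For most genes the 4 blue and grey points (LPS, resting) lie together and the 2 red points (LC53 plus LPS) lie to the right, while PASD1, BTBD19 and SYT11 have blue points close to the red ones.

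A list of 39 NRF2 targets and regulators, chosen from textbook knowledge with earlier results of these data known, held 35 measured genes and 4 of the 89, namely CBR3, AKR1C1, TALDO1 and KEAP1. Of the 35, 12 rose and 0 fell in LC53 plus LPS against LPS cells (background 0.882% higher and 2.26% lower), and 19 rose and 0 fell against resting cells (2.03% and 1.51%). At an unadjusted p below 0.05, 24 were higher and 1 lower than in LPS cells. Over all 31741 probes, 5849 passed at that level in either direction. That background also belongs beside the unadjusted counts of the other lists below. Of the 12, 2 were members (CBR3 and AKR1C1), which had been chosen on this contrast. The 19 included the members CBR3, AKR1C1 and TALDO1, chosen on the contrast with resting cells too. The median difference of the list from LPS cells was 0.95, against 0.16 over all genes. On 27 of 35 genes both LC53 plus LPS arrays lay above the other 4, against 17.2% of all genes. The 4 members are among the 27 by the rule, and they also count in the list median. List calls against LPS cells became fewer when any array but LPS replicate 2 was left out. Those against resting cells became fewer without an LC53 plus LPS or a resting array. Calls over all probes moved in the same direction each time. Each such fit leaves 1 array in a group, so nothing particular to the list is read from it.

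Of the 16 listed genes that exceeded both other groups by 0.9 or more, 12 had an LPS difference above 0.5 and so stood outside the 89. In the test of LPS against resting cells 7 of these 12 passed, against 7.56% of all genes in either direction. The 12 had been set apart by that same difference, so nothing is read from the 7. OSGIN1, an oxidative stress gene, read 5722 ± 265 in LC53 plus LPS, 657 ± 83.1 in LPS and 190.4 ± 11.2 in resting cells (SD, n = 2 each, as for the means below), and rose over LPS cells by 3.13 ± 0.19, adjusted p = 0.00323 (log2 difference ± SE, limma). HMOX1, encoding haem oxygenase 1, rose by 3.01 ± 0.18, adjusted p = 0.00314, and SRXN1, the sulfiredoxin that repairs oxidised peroxiredoxins, by 2.55 ± 0.34, adjusted p = 0.0237. The OSGIN1 and HMOX1 calls held without each of the 6 arrays in turn, whereas that of SRXN1 ended without any array other than LPS replicate 2. NQO1, a widely used NRF2 target, read 20.6 ± 0.898 in LC53 plus LPS, 19.9 ± 3.12 in LPS and 19.5 ± 3.77 in resting cells and was not called. FTL, the ferritin light chain gene, was at the ceiling of the scale on all arrays, where a change could not be seen. NFE2L2, which encodes NRF2, did not pass against LPS cells, at 17419 ± 214 in LC53 plus LPS, 28192 ± 4033 in LPS and 8441 ± 361 in resting cells (limma adjusted p = 0.147).

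**Figure D4:**
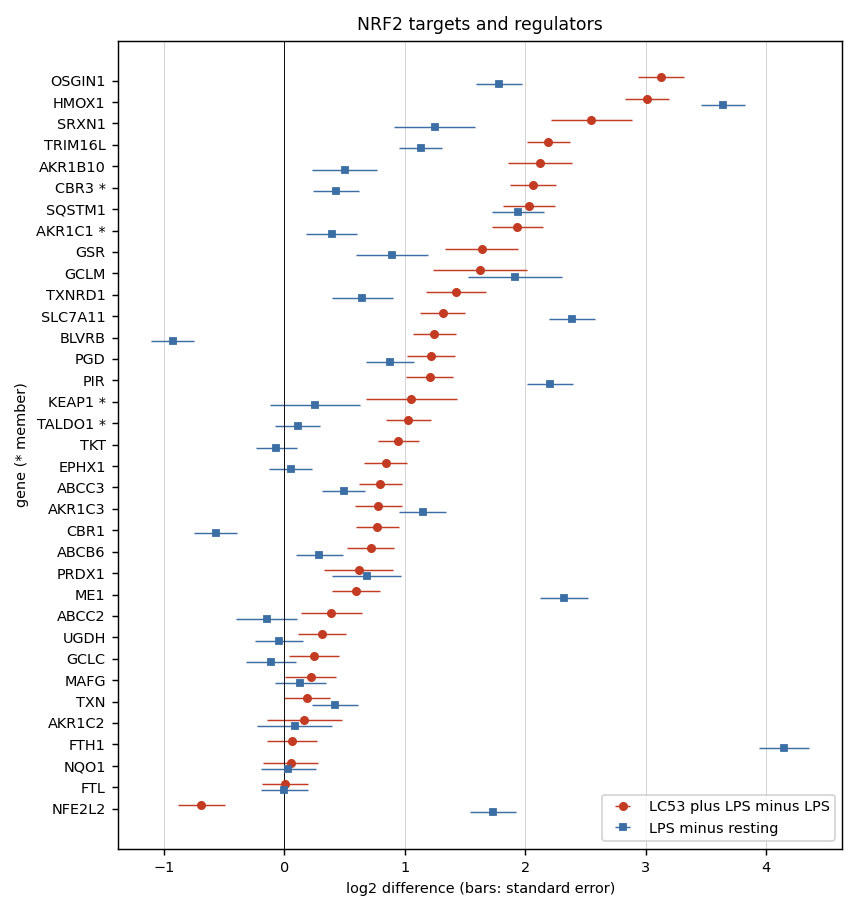
Log2 differences with standard errors for the 35 measured NRF2 targets and regulators, LC53 plus LPS minus LPS in red circles and LPS minus resting in blue squares. The 4 member genes, marked with *, have red points at 1.03 to 2.06 and blue points at 0.11 to 0.43, while HMOX1, OSGIN1, SRXN1 and SQSTM1 have both points above 1.

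Promoter sequence from RefSeq (GRCh38.p14, 250 bases before to 50 after the start of the gene) was matched for 69 of the 89 genes. The core of the antioxidant response element, to which NRF2 binds with small MAF proteins, was searched on both strands as TGACNNNGC and as TGAGNNNGC. The first stood in 9 of 69 promoters (13.0%), against 14.3% of 14579 measured genes with a promoter and 15.3% of the 9136 with an LC53 plus LPS mean of 100 or more. The second stood in 23 of 69 (33.3%), against 19.7% and 20.7%. Either stood in 30 (43.5%), against 31.2% and 32.9%. A heat shock element pair, GAANNTTC, stood in 3 promoters (4.35%, against 5.46% of measured genes), the ATF4 core TGATGNAA in 2 (2.90%, against 2.46%), the lysosomal CLEAR box TCACGTGA in 2 (2.90%, against 1.47%) and the cyclic AMP response element TGACGTCA in 3 (4.35%, against 2.62%). Of 40 matches to the 2 cores, 1 overlapped another of these motifs. A match describes letters only. The median GC content of the promoters was 65.7%, against 63.0% of measured genes and 65.0% of those with a mean of 100 or more.

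Of the redox members 8 had a promoter in the table and 4 of these held a core. These 4 are shown with FAM131A, the gene with the most TGACNNNGC matches, 5′ to 3′ on the strand of the gene with the cores in capitals. A core in the reverse orientation appears as its reverse complement. The windows are chr10:4963165-4963464 (+ strand) for AKR1C1, chr6:2999644-2999943 (+) for NQO2, chr1:109740989-109741288 (- strand) for GSTM3, chr11:20363464-20363763 (+) for HTATIP2 and chr3:184335676-184335975 (+) for FAM131A.
AKR1C1: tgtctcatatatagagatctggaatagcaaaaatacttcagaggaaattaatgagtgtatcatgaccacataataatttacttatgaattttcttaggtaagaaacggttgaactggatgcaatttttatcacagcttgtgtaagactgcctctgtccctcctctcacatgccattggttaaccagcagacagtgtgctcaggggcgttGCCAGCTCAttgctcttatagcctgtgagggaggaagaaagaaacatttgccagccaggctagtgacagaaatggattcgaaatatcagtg
NQO2: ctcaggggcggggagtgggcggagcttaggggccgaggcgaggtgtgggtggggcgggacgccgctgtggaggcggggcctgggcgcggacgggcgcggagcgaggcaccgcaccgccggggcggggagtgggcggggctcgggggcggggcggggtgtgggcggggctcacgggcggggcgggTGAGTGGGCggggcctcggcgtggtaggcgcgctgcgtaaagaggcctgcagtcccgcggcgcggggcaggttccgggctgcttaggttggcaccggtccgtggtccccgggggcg
GSTM3: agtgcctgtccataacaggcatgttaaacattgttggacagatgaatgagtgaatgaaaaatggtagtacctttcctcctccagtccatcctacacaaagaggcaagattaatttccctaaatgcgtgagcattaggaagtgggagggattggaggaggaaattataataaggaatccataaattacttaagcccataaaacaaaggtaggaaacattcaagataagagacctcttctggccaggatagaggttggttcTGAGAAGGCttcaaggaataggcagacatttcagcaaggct
HTATIP2: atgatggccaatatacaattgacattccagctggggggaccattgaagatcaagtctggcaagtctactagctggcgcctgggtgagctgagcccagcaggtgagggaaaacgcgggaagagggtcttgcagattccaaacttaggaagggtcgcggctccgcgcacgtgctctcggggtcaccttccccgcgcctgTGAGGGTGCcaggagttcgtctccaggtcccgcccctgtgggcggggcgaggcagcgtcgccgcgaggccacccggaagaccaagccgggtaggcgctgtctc
FAM131A: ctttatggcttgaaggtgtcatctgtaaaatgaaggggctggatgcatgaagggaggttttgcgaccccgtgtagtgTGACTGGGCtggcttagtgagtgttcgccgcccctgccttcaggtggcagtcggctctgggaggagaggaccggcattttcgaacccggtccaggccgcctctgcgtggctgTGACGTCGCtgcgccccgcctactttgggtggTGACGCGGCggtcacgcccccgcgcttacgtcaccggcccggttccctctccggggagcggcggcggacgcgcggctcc
The TALDO1 and KEAP1 windows held neither core.

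Genes of lipid, amino acid and mitochondrial metabolism numbered 9. PLIN2, which coats lipid droplets and is a target of fatty acid-sensing nuclear receptors, read 23049 and 25183 in LC53 plus LPS cells, against 6784 and 6871 in LPS cells and 6646 and 8027 in resting cells, a log2 difference of 1.82 ± 0.19 (SE) from LPS cells and 1.72 from resting cells. Its 4 other arrays spanned 6646 to 8027, well below both LC53 plus LPS arrays. LRP8, a receptor of apolipoprotein E and reelin, read 7183 and 6649 in LC53 plus LPS cells, against 2911 and 3279.8 in LPS cells and 3211 and 3279 in resting cells, a log2 difference of 1.16 ± 0.18 (SE) from LPS cells and 1.09 from resting cells. PPARA, the nuclear receptor for fatty acids, read 1247 and 983 in LC53 plus LPS cells, against 457 and 721 in LPS cells and 573 and 593 in resting cells, a log2 difference of 0.95 ± 0.28 (SE) from LPS cells and 0.93 from resting cells, with its lower LC53 plus LPS array 0.45 above LPS replicate 2. Further PPARA probes gave 0.58 and 0.56 from LPS cells, and 1.15 and 0.30 from resting cells. ARG2, the mitochondrial arginase, read 408 and 422 in LC53 plus LPS cells, against 145 and 188 in LPS cells and 165 and 234 in resting cells, and TDO2, a dioxygenase that opens the tryptophan ring, 592 and 521 in LC53 plus LPS cells, against 221 and 275 in LPS cells and 232 and 225 in resting cells. Both were separated from the other arrays by 0.80 or more. MIEF2, a receptor for the mitochondrial fission machinery, ABHD11, a mitochondrial hydrolase, SIRT4, a mitochondrial sirtuin, and PPP1R3F, a glycogen-targeting phosphatase subunit, differed from LPS cells by 1.09, 0.95, 0.93 and 1.13. Further ABHD11 probes gave 0.66 and 0.64 from LPS cells, and further PPP1R3F probes 0.39 and -0.16. Of 14 listed targets of LXR and PPARG, 2 were called higher against LPS cells, PLIN2 and PPARG itself, and 0 lower (background 0.882% higher and 2.26% lower). The list median was 0.33, against 0.16 over all genes. PLIN2 is a member and had been chosen on this contrast. Without adjustment (p below 0.05) 2 were higher and 1 lower. PPARG read 388 ± 1.83 in LC53 plus LPS, 128 ± 16.8 in LPS and 328 ± 30.8 in resting cells, so its LC53 plus LPS level was near the resting one and its LPS level was below both, unlike PLIN2.

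The group of immune and surface signalling genes numbered 11. LY96 encodes MD-2, the protein that binds LPS on TLR4. It read 588 and 577 in LC53 plus LPS cells, against 252 and 273 in LPS cells and 265 and 265 in resting cells, a log2 difference of 1.15 ± 0.17 (SE) from LPS cells and 1.14 from resting cells. The 4 other arrays lay between 252 and 273, and the LC53 plus LPS arrays lay 1.08 above the highest of them. S100P, a calcium-binding ligand of the receptor RAGE, read 2269 and 1792 in LC53 plus LPS cells, against 708 and 854 in LPS cells and 971 and 873 in resting cells, a log2 difference of 1.37 ± 0.22 (SE) from LPS cells and 1.13 from resting cells. FZD5, a WNT receptor, read 393 and 383 in LC53 plus LPS cells, against 172 and 181 in LPS cells and 136 and 150.3 in resting cells, and a second FZD5 probe gave a smaller difference of 0.64 from LPS cells. ANGPT1, the ligand of the TIE2 receptor, read 169 and 206 in LC53 plus LPS cells, against 50.0 and 92.3 in LPS cells and 46.6 and 54.5 in resting cells. MRC1, the mannose receptor of macrophages, was dim and read 109 and 158 in LC53 plus LPS cells, against 55.2 and 63.5 in LPS cells and 62.5 and 69.6 in resting cells, the only member among 19 measured genes of monocyte and macrophage identity. In that list CSF1R, the receptor of macrophage colony-stimulating factor, fell against LPS cells, at 885 ± 8.62 in LC53 plus LPS, 2365 ± 405 in LPS and 1898 ± 65.8 in resting cells (log2 difference -1.41 ± 0.20, adjusted p = 0.029), and it was the only gene of the list called against LPS cells (list median 0.01). At an unadjusted p below 0.05, 3 were higher and 5 lower, and after quantile normalization the adjusted calls were 1 higher and 5 lower. Over all probes that scaling called 1650 higher and 2105 lower, against 218 and 616 without it. The other signalling genes were CMTM8, a MARVEL-domain protein, RASD1, a dexamethasone-induced small G protein, IAPP, the pancreatic hormone amylin, IGSF23, the phosphatidylserine receptor gene HAVCR1, and ILRUN, an inhibitor of antiviral transcription. Their differences from LPS cells were 1.31, 1.24, 1.10, 1.07, 0.98 and 0.94. IAPP, IGSF23 and HAVCR1 had LPS arrays apart by 1 or more on the log2 scale, so their group means were loosely measured.

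Proteases and genes of the ubiquitin system numbered 8. CTSL, the lysosomal cathepsin L, read 12114 and 11694 in LC53 plus LPS cells, against 4413 and 5336 in LPS cells and 4996 and 5434 in resting cells, a log2 difference of 1.29 ± 0.19 (SE) from LPS cells and 1.19 from resting cells. ADAM17, the membrane protease that sheds TNF and other surface proteins, read 5148 and 5526 in LC53 plus LPS cells, against 2454 and 2528 in LPS cells and 1840.5 and 2150.2 in resting cells, a log2 difference of 1.10 ± 0.18 (SE) from LPS cells and 1.42 from resting cells. Both were bright, and their LC53 plus LPS arrays lay 1.11 and 1.03 above the highest other array. FBXL18, a substrate adaptor of SCF ubiquitin ligases, read 1595 and 1536 in LC53 plus LPS cells, against 481 and 640.4 in LPS cells and 499 and 515 in resting cells, while 2 further FBXL18 probes gave 0.64 each from LPS cells. PRSS23, a secreted serine protease, read 155 and 124 in LC53 plus LPS cells, against 41.7 and 63.5 in LPS cells and 71.4 and 64.5 in resting cells, and the metalloprotease ADAM33 143 and 125 in LC53 plus LPS cells, against 43.7 and 60.6 in LPS cells and 46.6 and 45.4 in resting cells. TRIM2, a ubiquitin ligase, differed from LPS cells by 1.14, with 1.20 on its second probe. KCTD7, a BTB-domain protein, and SHFM1, a small subunit of the proteasome lid named as in the probe table, each differed by 1.04. None of 14 listed proteasome genes was called by limma against LPS cells (median 0.30), and 1 was higher at an unadjusted p below 0.05. Of 19 listed genes of autophagy and lysosome (median 0.32), 1 was called higher, SQSTM1, the autophagy receptor p62 (2.03 ± 0.21, adjusted p = 0.013), and 0 lower. The unadjusted counts of that list were 7 higher and 1 lower, and quantile normalization gave 4 higher and 0 lower after adjustment. Over all probes quantile normalization called 1650 higher and 2105 lower, against 218 and 616 without it.

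The chaperone gene DNAJB4, a co-factor of HSP70, read 614 and 582 in LC53 plus LPS cells, against 221 and 256 in LPS cells and 172 and 192 in resting cells, a log2 difference of 1.33 ± 0.19 (SE) from LPS cells and 1.72 from resting cells. DNAJC6, the auxilin that uncoats clathrin vesicles, read 188 and 174 in LC53 plus LPS cells, against 62.5 and 102 in LPS cells and 70.4 and 68.6 in resting cells. Both kept the 4 other arrays at or below 256. Of 22 measured heat shock and chaperone genes, 2 rose against LPS cells, DNAJB4 and BAG3, a co-chaperone of HSP70, and 0 fell (list median 0.56, background 0.882% higher and 2.26% lower). DNAJB4 is a member and had been chosen on this contrast, so only BAG3 was called apart from the choice. Before adjustment 12 were higher and 0 lower at p below 0.05, where 5849 of all 31741 probes passed in either direction. The count called higher was 7 with an offset of 50, 8 after quantile normalization, 4 after median centring, 7 after cyclic loess, 7 without dim probes, 10 with an intensity trend and 0 with the replicate block. Calls over all probes moved as well, from 218 higher to 1098, 1650, 668, 1196, 776, 974 and 59 in that order. Fewer probes were tested without dim ones. Nothing is read from the growth of the list count. BAG3 differed by 1.16 ± 0.19, adjusted p = 0.0431 from LPS cells and did not pass against resting cells, at 2785 ± 161 in LC53 plus LPS, 1247 ± 41.9 in LPS and 1597 ± 199 in resting cells. The BAG3 call ended when either LC53 plus LPS array, LPS replicate 1 or either resting array was left out.

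A set of 7 genes belonged to the handling of DNA, RNA and translation. RN7SK, the noncoding RNA that holds the elongation factor P-TEFb inactive, read 3018 and 2285 in LC53 plus LPS cells, against 609 and 747 in LPS cells and 783 and 659 in resting cells, a log2 difference of 1.96 ± 0.24 (SE) from LPS cells and 1.87 from resting cells. Many related copies of RN7SK lie in the genome, so its probe may read several. NEIL3, a DNA glycosylase, read 2671 and 2772 in LC53 plus LPS cells, against 966 and 1042 in LPS cells and 1126 and 1281 in resting cells, a log2 difference of 1.44 ± 0.18 (SE) from LPS cells and 1.18 from resting cells. CDKN3, a phosphatase of cyclin-dependent kinases, read 7896 and 8220.3 in LC53 plus LPS cells, against 3399 and 4034 in LPS cells and 3619 and 3876 in resting cells, a log2 difference of 1.12 ± 0.19 (SE) from LPS cells and 1.11 from resting cells. All 3 were well separated, by 0.97 or more. TET1, which oxidises methylcytosine, EIF1B, a translation initiation factor, CWF19L1, related to a yeast splicing factor, and GARS, the glycyl-tRNA synthetase under the symbol of the probe table, differed from LPS cells by 0.99, 0.99, 1.03 and 0.97. Among 27 listed cell cycle genes (median -0.10) 0 rose and 1 fell against LPS cells, CCND1, encoding cyclin D1, at 65.4 ± 1.0 in LC53 plus LPS, 193 ± 20.2 in LPS and 65.5 ± 5.73 in resting cells (-1.56 ± 0.19, adjusted p = 0.0194). The unadjusted counts were 0 higher and 5 lower, and after cyclic loess 6 were called lower. Over all probes 2389 were called lower after cyclic loess, against 616 without it.

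Transcription factors numbered 4. ZNF746, a KRAB zinc finger repressor known as PARIS, read 1580.0 and 1362 in LC53 plus LPS cells, against 298 and 484 in LPS cells and 413 and 406 in resting cells, a log2 difference of 1.95 ± 0.27 (SE) from LPS cells and 1.84 from resting cells. ZNF771 read 965 and 1037 in LC53 plus LPS cells, against 371 and 431 in LPS cells and 421 and 480.1 in resting cells, and its LC53 plus LPS arrays were 1.01 above the highest other array. GRHL3, a regulator of epidermal differentiation, and TLX1, a homeobox factor, differed from LPS cells by 1.17 and 1.16.

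Genes best known from neurons and sense organs numbered 10, and several were dim. CHRNA6, a nicotinic receptor subunit, read 114 and 129 in LC53 plus LPS cells, against 16.7 and 22.1 in LPS cells and 15.9 and 15.1 in resting cells, a log2 difference of 2.66 ± 0.22 (SE) from LPS cells and 2.97 from resting cells. NUMBL, a relative of the cell fate protein NUMB, read 486 and 522 in LC53 plus LPS cells, against 141 and 169 in LPS cells and 114 and 138 in resting cells, a log2 difference of 1.71 ± 0.21 (SE) from LPS cells and 2.01 from resting cells, and its second probe gave 0.96. SYT11, a synaptotagmin, read 108 and 103 in LC53 plus LPS cells, against 15.6 and 99.0 in LPS cells and 56.5 and 43.4 in resting cells. LPS replicate 2 came within 0.05 of the lower LC53 plus LPS array there, the smallest distance among the 89 genes. OPN1SW, the blue cone opsin, read 129 and 131 in LC53 plus LPS cells, against 36.5 and 67.3 in LPS cells and 42.6 and 51.4 in resting cells. MAP1B, a microtubule-associated protein, read 1089 and 994 in LC53 plus LPS cells, against 437 and 468 in LPS cells and 329 and 335 in resting cells, a log2 difference of 1.20 ± 0.18 (SE) from LPS cells and 1.65 from resting cells. RIMS3, of the synaptic active zone, NEGR1, a neuronal adhesion molecule, the olfactory receptor OR1I1, the channel-like TMC7 and the potassium channel KCNK15 differed from LPS cells by 1.16, 1.14, 1.06, 1.04 and 1.02. A second NEGR1 probe ran the other way, at 14.5 and 7.81 in LC53 plus LPS cells, against 50.0 and 70.2 in LPS cells and 32.7 and 18.2 in resting cells.

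Cytoskeletal, ciliary, membrane and Golgi genes numbered 9. ASPH, an aspartate hydroxylase of the endoplasmic reticulum, read 2339 and 2359 in LC53 plus LPS cells, against 681 and 739 in LPS cells and 699 and 756 in resting cells, a log2 difference of 1.73 ± 0.18 (SE) from LPS cells and 1.69 from resting cells. Of its 5 further probes 1 was bright and gave 1.15 from LPS cells but 0.39 from resting cells. TSPAN10, a tetraspanin that binds the protease ADAM10, read 4182 and 3997 in LC53 plus LPS cells, against 1091 and 1599 in LPS cells and 1076 and 1014 in resting cells, a log2 difference of 1.63 ± 0.24 (SE) from LPS cells and 1.97 from resting cells. IFT172, a carrier of intraflagellar transport, read 1127 and 965 in LC53 plus LPS cells, against 355 and 466 in LPS cells and 320.3 and 342 in resting cells. TPST1, a tyrosine sulfotransferase of the Golgi, MTSS1, a membrane-bending protein, SNX12, a sorting nexin, EPB41, the erythrocyte skeleton protein 4.1, DNAH5, an axonemal dynein, and HEG1, a junction receptor, differed from LPS cells by 1.14, 1.13, 1.07, 1.04, 0.94 and 0.90.

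The last 17 genes have little or no described function, or none in monocytes, and they held 3 of the 4 largest differences. C22orf42 read 545 and 563 in LC53 plus LPS cells, against 79.2 and 96.2 in LPS cells and 59.5 and 78.7 in resting cells, a log2 difference of 2.67 ± 0.22 (SE) from LPS cells and 3.02 from resting cells. ANKRD30BL read 7060.1 and 6008 in LC53 plus LPS cells, against 979 and 1261 in LPS cells and 1209 and 1189 in resting cells, a log2 difference of 2.55 ± 0.21 (SE) from LPS cells and 2.44 from resting cells. Both were far apart from the other arrays, by 2.50 and 2.25. PASD1, a testis gene, read 136 and 124 in LC53 plus LPS cells, against 4.17 and 106 in LPS cells and 2.97 and 89.8 in resting cells. Its difference of 2.63 (SE 2.0) came with low first arrays of LPS and resting cells, while the second arrays lay near the LC53 plus LPS values, and its second probe gave -0.13. TMEM116 read 2502 and 1914 in LC53 plus LPS cells, against 491 and 641 in LPS cells and 767 and 699 in resting cells, EVA1B 688 and 419.6 in LC53 plus LPS cells, against 126 and 199 in LPS cells and 239 and 207 in resting cells and FAM131A 829.9 and 815 in LC53 plus LPS cells, against 254 and 279 in LPS cells and 316 and 321 in resting cells. BTBD19 read 102 and 115 in LC53 plus LPS cells, against 16.7 and 90.4 in LPS cells and 18.8 and 49.4 in resting cells, with its LPS arrays 2.44 apart. NHSL3 read 1430.5 and 2259.6 in LC53 plus LPS cells, against 600.0 and 752 in LPS cells and 472 and 656 in resting cells. The others were ST7L, KIAA0513, C19orf81, ARMH4, PRRT3, the pseudogene SPATA31F2P, FAM89A, the late envelope gene LCE6A and CCDC167, with differences from LPS cells between 0.95 and 1.38.

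Some genes with several probes allowed a second reading of the same RNA. The 30 members with several probes had 39 further probes, which the choice did not use although they share the arrays. On 22 of the 39, both LC53 plus LPS arrays lay above the other 4, against 13.3% of all further probes on the array. Both groups were exceeded by 0.9 or more on 6 of the 39, against 1.03% of all further probes. No limit of intensity was set there. Among the 6, a KCTD7 probe read only 1.81 and 11.2 in LC53 plus LPS cells, and an ASPH probe 6.34 and 6.69. The median difference from LPS cells was 0.58 over the 39, against 0.06 over all further probes. Of the 39, 30 were higher than both other groups on the means, and 6 were lower than LPS cells, those of AKR1C1, BTBD19, DNAH5, NEGR1, PASD1 and PPP1R3F.

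**Figure D5:**
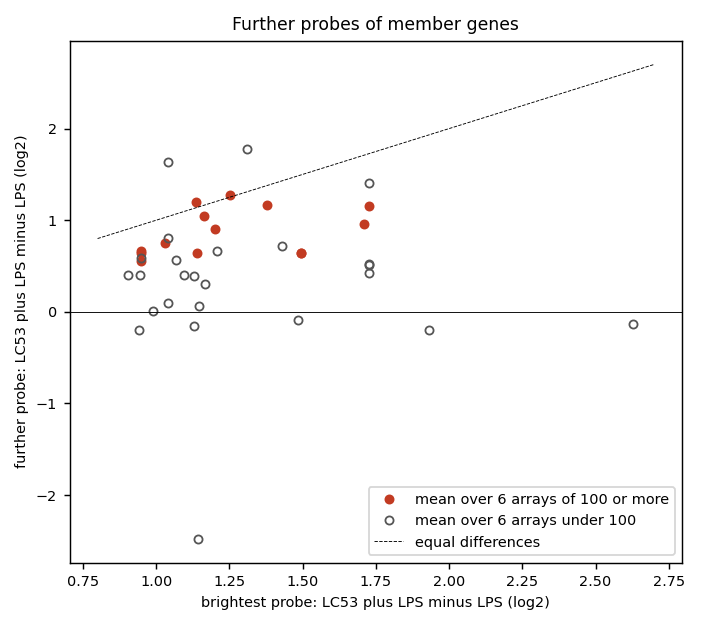
Difference between LC53 plus LPS and LPS cells on the brightest probe (horizontal) and on each of 39 further probes of the same gene (vertical), with the dashed line at equal differences. Filled red points have a mean over the 6 arrays of 100 or more and open points a lower one. Most points lie below the line, and the 6 points below 0 are open, with NEGR1 lowest at -2.48.

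In the other lists, counts against LPS cells stand beside 0.882% of all genes called higher and 2.26% called lower, and several changed with the scaling. Over all 31741 probes, 5849 had an unadjusted p below 0.05 in either direction. Adjusted calls over all probes also changed, from 218 higher and 616 lower without rescaling. They were 1098 and 1269 with an offset of 50, 1650 and 2105 after quantile normalization, and 1196 and 2389 after cyclic loess. With the replicate block they were 59 and 330. Of 29 genes of ATF4 and the integrated stress response, 2 rose and 0 fell (median 0.52) and none was a member. At an unadjusted p below 0.05, 15 were higher and 5 lower. With an offset of 50 or quantile normalization 7 were called higher and 3 lower, and with the replicate block 1 and 0. Fewer were called when either LC53 plus LPS array was left out, as over all probes. PSAT1, of serine synthesis, read 14278 ± 333 in LC53 plus LPS, 3684 ± 113 in LPS and 11634 ± 489 in resting cells (1.95 ± 0.17, adjusted p = 0.00751). ASNS, asparagine synthetase, read 6381 ± 33.4 in LC53 plus LPS, 2541 ± 2.28 in LPS and 3777 ± 3.37 in resting cells (1.33 ± 0.17, adjusted p = 0.0217). Both missed the rule on the LPS window and on the rise over resting cells. Of 20 p53 targets (median -0.17), PMAIP1 rose (1.10 ± 0.19, adjusted p = 0.0473), and BTG2 (-1.93 ± 0.19, adjusted p = 0.0102) and PLK3 (-1.23 ± 0.18, adjusted p = 0.032) fell against LPS cells. At an unadjusted p below 0.05, 2 were higher and 7 lower, and after quantile or cyclic loess normalization the adjusted calls were 2 higher and 7 lower. Of 5 measured metallothionein and zinc genes (median -0.59), 1 fell, MT2A (-2.06 ± 0.26, adjusted p = 0.0217). Of 22 immediate early genes (median -0.12), 1 fell, the orphan receptor NR4A3 (-2.29 ± 0.19, adjusted p = 0.0064). Of 8 AHR targets (median -0.58), 2 fell, CYP1B1 (-1.53 ± 0.19, adjusted p = 0.0211) and AHRR (-1.05 ± 0.17, adjusted p = 0.0441). No gene of these 3 lists was called higher by limma. In the order given, their unadjusted counts were 0 higher and 3 lower, 1 higher and 5 lower, and 0 higher and 4 lower, and after cyclic loess 3, 4 and 4 genes were called lower. No gene was called against LPS cells among 17 of the unfolded protein response, 16 of sterol synthesis and 20 of glycolysis and hypoxia, with medians of 0.16, 0.04 and 0.06. At an unadjusted p below 0.05, 1 was higher and 1 lower, 1 higher and 2 lower, and 3 higher and 1 lower in these lists. Of the 17 genes named from the lists that are no members, some lost their limma calls with 1 array left out. HMOX1 and OSGIN1 kept theirs each time. Such fits leave 1 array in a group, and calls over all probes changed as well. Direction was kept throughout.

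No 2 of the genes were neighbours among the measured genes. Chromosome 1 held 16 (18.0%), against 9.94% of all measured genes. By annotation 85 were protein coding, 1 a small nuclear RNA and 1 a transcribed pseudogene, and 2 symbols had no current entry.

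Genes near the thresholds were close in value on both sides. On the rise over LPS cells, HEG1, SIRT4, ALDH3A2, DNAH5 and ILRUN were just inside at 0.90, 0.93, 0.93, 0.94 and 0.94, and CMAS, VWF, EMC3, KRT13 and SWT1 just outside at 0.88, 0.87, 0.87, 0.86 and 0.86. On the rise over resting cells, ABHD11, HEG1, CYB5R1, PPARA and IGSF23 stood at 0.91, 0.92, 0.92, 0.93 and 0.93, and ZNF767P, TAS2R13, TKT, C1orf198 and OR8S1 at 0.90, 0.89, 0.88, 0.88 and 0.88. On the LPS window, EVA1B, MAP1B, ANGPT1, CBR3 and PPP1R3F stood at -0.49, 0.45, 0.43, 0.43 and 0.42, and MGAT5, CLN8, VMP1, NMT2 and TMEM74B at 0.51, -0.52, 0.53, 0.53 and 0.53. On mean intensity in LC53 plus LPS cells, HAVCR1, ARMH4, SYT11, BTBD19 and SIRT4 stood at 102, 105, 105, 109 and 116, and OR13G1, LSM3, DRC1, ADIRF and KANSL3 at 95.7, 93.7, 89.6, 89.5 and 88.3. On the separation of arrays, SYT11, IAPP, BTBD19, ILRUN and PASD1 were 0.05, 0.16, 0.18, 0.22 and 0.23 clear, and OR5AC2, LRFN2, TRIM77 and MIGA1 overlapped by differences of -0.05, -0.06, -0.16 and -0.51.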

How the data were processed

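The deposited table holds 1 intensity per probe and array, on a linear scale, as the authors processed it; labelling was with Cy5 after amino allyl amplification, per the labels' protocols, and the background correction and normalization are not given in the sources used here. Array medians differed, so a scaling between arrays cannot be taken for granted, and precision is limited by 2 arrays per group. Symbols came from the platform annotation: 24658 of 31741 probes had 1 symbol, and 7083 had several or none.

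Values under 1 were set to 1 and log2-transformed, and all probes and the 3 groups were fitted together with limma (version 3.58.1 in R 4.3.3, lmFit and eBayes, Benjamini-Hochberg adjustment over all probes, threshold 0.05). The procedure was tested on simulated data. A gene took its brightest probe. The SD is over linear intensities and the SE from limma's fit. Python 3.11.15 with numpy 2.4.6, pandas 2.3.3 and matplotlib 3.10.9 served for tables and figures.

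The members and the 15 gene lists were chosen with earlier results of these data known. Named genes were the 24 members with the largest difference from LPS cells, members in a list, up to 3 called genes per list and 5 genes on each side of each threshold, the last given by the threshold quantity and not by array. Other members are named by role. Role groups, and the promoters shown, were set after values were seen. Alternatives were an offset of 50, quantile, median and cyclic loess scaling, a filter on dim probes, an intensity trend, a replicate block, other probe choices, other thresholds, and leaving out each array.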

Additional observations from a re-analysis of the deposited data

Results flagged for a closer look

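Of 7083 probes without a single gene symbol, 19 met the same thresholds as the members, 16 with no symbol and 3 with several. They stand outside the gene comparisons because no gene could be named. The probe PH_hs_0029660, annotated to several genes, read 258 and 211 in LC53 plus LPS cells, against 52.1 and 103 in LPS cells and 53.5 and 54.5 in resting cells. PH_hs_0045710, with no symbol, read 129.6 and 149.5 in LC53 plus LPS cells, against 37.5 and 75.0 in LPS cells and 35.7 and 46.4 in resting cells.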

How the results depend on the processing

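How the intensities were scaled between arrays is unknown, 2 arrays per group give little power, and LPS replicate 2 read above replicate 1 almost throughout. The number of genes meeting the rule was 89. It was 68 with an offset of 50 (57 shared with the 89), 77 after quantile normalization (71), 69 after median centring (66) and 64 after cyclic loess (63). Using any probe gave 106 (89 shared) and the median of probes 70 (64), a rise of 1.0 gave 68, and a window of 0.3 gave 69. Leaving out 1 array at a time gave 57 (without LPS replicate 1) to 136 (without LPS replicate 2). Of the 89, 48 met the rule under all 4 scalings, 38 without each of the 6 arrays and 33 under all 10 settings. Mean differences of all 89 from both other groups stayed positive under the 4 scalings. The genes had been chosen for clear rises over both groups, so nothing is read from this.

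Counts of called probes moved more, and the cause was not tested. For LC53 plus LPS against LPS, 834 probes were called (26.1% higher). The count was 2367 (46.4%) with the offset, 3755 (43.9%) after quantile normalization, 2416 (27.6%) after median centring, 3585 (33.4%) after loess, 1856 (41.8%) without dim probes and 2159 (45.1%) with an intensity trend, and 91 to 2318 with 1 array left out. Against resting cells LC53 plus LPS gave 941 (59.2% higher), and in the same order 2198 (49.2%), 3494 (43.5%), 2440 (44.1%), 3370 (44.7%), 1925 (51.2%) and 2030 (54.5%), and 75 to 1555. LPS against resting gave 2069 (61.7% higher), and 3519 (50.3%), 5157 (49.5%), 3802 (60.4%), 5032 (58.6%), 3079 (52.9%) and 3356 (54.4%), and 479 to 2579. The 12 NRF2 list genes higher than in LPS cells became 20, 21, 16, 19, 20 and 21 in that order, with 2 to 15 when 1 array was left out. Of the 89 members, 38 were called over LPS cells, against 64, 77, 70, 77, 72 and 65 in that order and 11 with the replicate block.

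With the replicate number as a replicate block, the calls were 389, 481 and 1492 probes for the 3 comparisons and 6 NRF2 list genes, and 9 of the 17 named list genes kept their call. Deviations of same-numbered arrays correlated at -0.0769 (LC53 plus LPS with LPS), 0.201 (LC53 plus LPS with resting) and 0.0581 (LPS with resting). These run over all probes, dim ones included, and cannot settle whether the arrays are paired. The main fit took them as unpaired. Whether same-numbered arrays share a culture or a day is not stated in the labels.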
